A study of Mus musculus with 4 samples.

Results

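The genes described here are 9 that write, erase or feed the erasure of DNA methylation: the erasers Tet1, Tet2 and Tet3, the methyltransferases Dnmt1, Dnmt3a and Dnmt3b, the glycosylase gene Tdg, and the isocitrate dehydrogenases Idh1 and Idh2. They were taken from a count table of 53465 mouse genes. All 9 were among the 12320 genes with enough reads to be tested, and each exceeded the filter's level of 0.674 CPM (read counts put on 1 common library size) in all 4 libraries. Of the 9, Tet2 was chosen by its counts, which were much lower in the extravasated libraries, so its difference is described without a test. The other 8 were listed for their function. The cells were B16-F10, an established mouse melanoma line, carrying a fluorescent label. Per the labels, they were infused into zebrafish, isolated from the fish and grown in culture in IMDM with 10% FBS before RNA was taken. In 2 libraries the cells were marked as having extravasated, that is, as having left the vessels, and in the other 2 as not having done so; the series' design text names the latter as the control. The polyA RNA was sequenced with a stranded mRNA kit. All 4 libraries come from 1 line, the labels give passage through a fish and culture for all of them, and the host vessels were those of a fish.

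The labels use the growth text of extravasated cells for every library, so groups were taken from the source name and the extravasation field. Since that text describes extravasated cells, passage through a fish is uncertain for the non-extravasated libraries. A number in the sample titles is shared within a group and differs between groups, and its meaning and extravasation cannot be told apart. Nothing in the labels ties the libraries of 1 group to separate cultures, so the p-values measure the spread between these libraries alone, which may be technical.

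DNA methyltransferases place a methyl group on cytosine, mostly where it is followed by guanine (a CpG). Dnmt1 copies the mark onto the new strand after replication, and Dnmt3a and Dnmt3b set it on unmethylated DNA. The TET enzymes oxidise methylcytosine to hydroxymethylcytosine and further to forms that Tdg cuts out, after which base excision repair restores an unmodified cytosine. TET enzymes need oxygen, iron and 2-oxoglutarate, which Idh1 makes in the cytosol and peroxisomes and Idh2 in mitochondria. Loss of hydroxymethylcytosine is a known feature of melanoma, and lower TET2 and IDH2 levels have been linked to it in that tumour.

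The libraries held between 11705904 and 19674733 counts. The 10 melanocytic marker genes were all tested and summed to 29620 and 24264 CPM in the non-extravasated and 31895 and 30928 CPM in the extravasated libraries, so the defining markers of the labelled cell type were present. Fibroblast, endothelial, immune and epithelial markers summed to at most 16.2 CPM in any library, and Dcn, Lum, Cdh5, Kdr, Tek, Ptprc, Adgre1, Cd3e, Epcam, Krt5, Krt14 and Krt8 had no read. The sums of 3 of these 4 lists, and the melanocytic sum, did not overlap between groups, which held for 76.3% of all tested genes. Their part in the results was not tested. The endothelial sum was 8.77 and 3.93 CPM against 15.3 CPM in both extravasated libraries. Only 1 endothelial gene had enough reads to be tested, and the highest single value of that list was 14.8 CPM. The fibroblast sum was 16.2 and 13.0 against 12.6 and 12.3 CPM, and the epithelial sum 0.694 and 0.752 against 1.14 and 1.21 CPM. Across 11126 nuclear coding genes, the fold change between groups rose with transcript GC content (Spearman rho 0.74, given as a description, since genes share libraries) and fell with transcript length (rho -0.38). The fold changes of the 9 genes and of the pathway genes named below are therefore also given from a fit with an offset for GC content and length, called the corrected value. The part of transcript composition, or of its technical handling, in the differences was not tested.

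The promoters of Tet2 and Tet3 are shown because the level of Tet2 lay far apart between the groups and that of Tet3 did not. Each window is the 250 bases before the RefSeq start (GRCm38.p6), 5′ to 3′ on the gene's minus strand, with every CpG in capitals. The Tet2 window, chr3:133544391-133544640, lies in an intron of a longer Tet2 transcript and in no exon of the GENCODE M21 annotation. The Tet3 window, chr6:83441679-83441928, lies in introns of longer Tet3 transcripts and overlaps an exon of the antisense noncoding gene B230319C09Rik.
Tet2: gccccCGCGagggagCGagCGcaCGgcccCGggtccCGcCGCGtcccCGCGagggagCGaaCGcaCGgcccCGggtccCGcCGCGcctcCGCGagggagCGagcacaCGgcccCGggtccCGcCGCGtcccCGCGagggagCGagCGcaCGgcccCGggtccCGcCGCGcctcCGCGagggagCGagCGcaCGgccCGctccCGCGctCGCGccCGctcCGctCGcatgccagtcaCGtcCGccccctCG
Tet3: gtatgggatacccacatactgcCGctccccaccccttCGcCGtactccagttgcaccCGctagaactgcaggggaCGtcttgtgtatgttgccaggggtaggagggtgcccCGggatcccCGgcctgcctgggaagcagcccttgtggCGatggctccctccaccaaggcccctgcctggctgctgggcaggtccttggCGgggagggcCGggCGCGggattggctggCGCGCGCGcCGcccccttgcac
The Tet2 window was 83.6% GC and held 51 CpGs, a number that 0.067% of 32851 RefSeq windows of this length reach; the median window had 6. The Tet3 window was 69.6% GC with 17 CpGs, as many as 23.5% of windows reach, and that of Tet1, chr10:62887325-62887574, was 62.8% GC with 15 CpGs (27.3%). The Tet2 promoter holds a tandem repeat: a stretch of 12 letters picked from it, CCGCGAGGGAGC, occurs 5 times in it. Of the 32851 windows, searched on both strands, 1 holds that stretch, its own. Since the stretch was picked from this window and most stretches of this length are rare, its absence elsewhere is a description only. The GC box GGGCGG, searched on both strands, occurred once in each of the 3 windows, against 32.7% of all windows with a copy. The core of the hypoxia response element, ACGTG, occurred once in the Tet2 window and its letters were not in the windows of Tet1 and Tet3, against 16.6% of all windows. These matches describe letters and not binding. The Tet2 promoter was richer in GC than that of Tet3, whereas its annotated transcript was poorer, at 45.4% against 60.1%. The longest annotated Tet3 transcript is 53.4% GC.

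Tet2 (ENSMUSG00000040943.12, chr3:133463679-133545139, minus strand) encodes a TET enzyme that is often mutated in blood cancers. Its level was 49.3 and 31.2 TMM-scaled CPM in the non-extravasated libraries, against 5.38 and 6.11 CPM after extravasation, from 568, 540, 71 and 116 reads. Both extravasated libraries lay far below both controls and close to each other. The mean went from 40.3 ± 12.8 CPM (SD, n = 2) to 5.74 ± 0.518 CPM (SD, n = 2), a 6.96-fold lower level, with a log2 fold change of -2.80 ± 0.26 (SE). With the GC and length offset the log2 fold change was -1.65 ± 0.22, or 3.15-fold. In such bulk RNA, fewer cells carrying Tet2 transcripts and less Tet2 RNA per cell cannot be told apart.

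Tet1 (ENSMUSG00000047146.17, chr10:62804570-62908996, minus strand), the TET enzyme best known from embryonic stem cells, was the least abundant. It measured 7.20 and 14.99 CPM in the non-extravasated and 1.36 and 1.42 CPM in the extravasated libraries, from 83, 259, 18 and 27 reads. The controls differed from each other by more than the whole level left in the extravasated cells, and the groups did not overlap. The mean fell from 11.1 ± 5.50 to 1.39 ± 0.0416 CPM (SD, n = 2 each), 7.98-fold on the fitted scale, with a log2 fold change of -3.00 ± 0.42 and an adjusted p of 0.00212 by edgeR's quasi-likelihood test with Benjamini-Hochberg adjustment over all tested genes. The corrected log2 fold change was -1.50 ± 0.54, with an adjusted p of 0.112 in edgeR, so that the call ended in this corrected fit. Of the 21 alternatives, 16 called Tet1, among them some fits with the correction. Most of these alternatives ran without the correction. Without the correction, the log2 fold change was -3.42 to -2.35 with any 1 library left out. With the longest transcript in the correction it was -1.53 and was not called (edgeR adjusted p 0.107). The weakest log2 fold change over the 21 alternatives was -0.52.

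Tet3 (ENSMUSG00000034832.15, chr6:83362373-83459084, minus strand), the TET enzyme of the oocyte and early embryo that is also widely expressed in adult tissues, was the most abundant of the family. Its level was 97.6 and 117.3 CPM in the non-extravasated libraries, against 104.2 and 73.8 CPM after extravasation. The groups overlapped, because extravasated 1 lay between the controls. Its log2 fold change was -0.27 ± 0.19 with an edgeR adjusted p of 0.272, and the corrected value was -0.50 ± 0.21 (adjusted p 0.150). With the longest annotated transcript in the correction, which is 10904 nt long at 53.4% GC in place of 5944 nt at 60.1%, the value was -0.02 (adjusted p 0.957). Without non-extravasated 1 the uncorrected value was -0.40 and passed (edgeR adjusted p 0.0355). The shorter model carries 3 nt after the coding part, the length of a stop codon, so it annotates no stretch beyond the stop. Its GC content, length and corrected value leave such a stretch out, and the correction of Tet3 depends on the model taken.

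**Figure D1:**
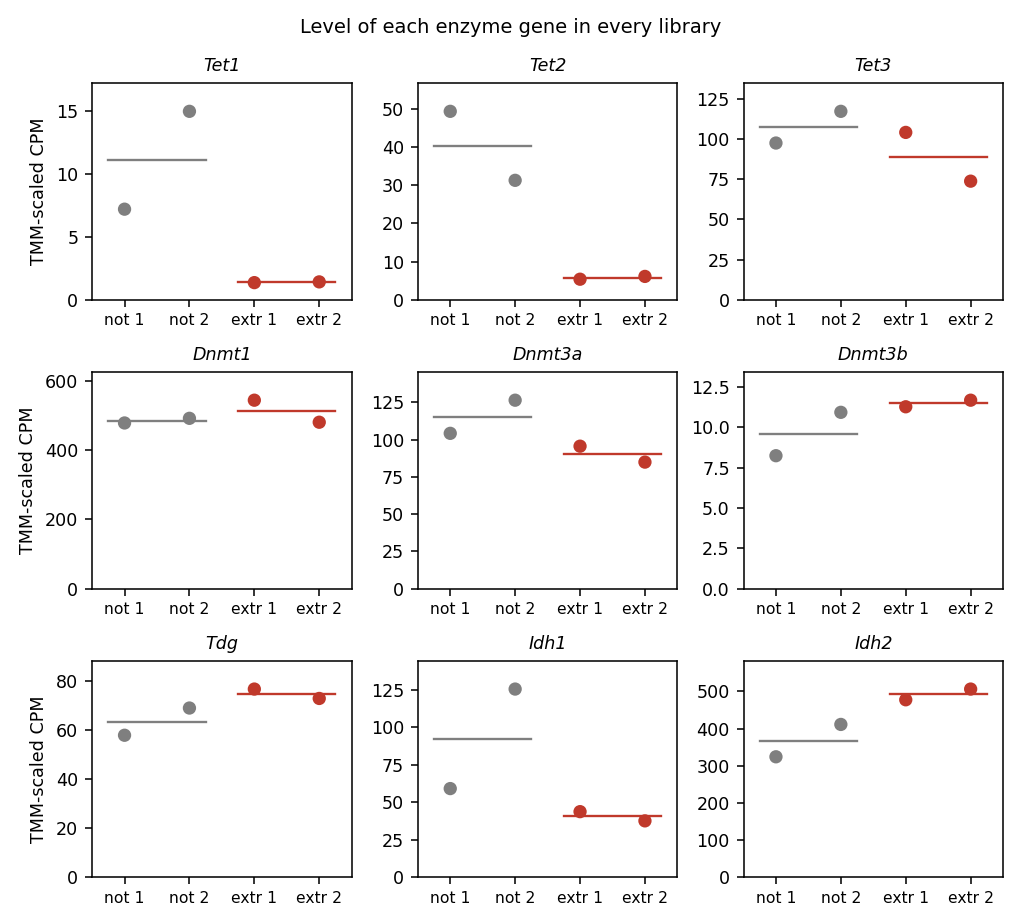
TMM-scaled CPM of each of the 9 genes in the 2 non-extravasated (not, grey) and 2 extravasated (extr, red) libraries, with points for libraries and bars for group means, each panel on its own axis from 0. Tet1 and Tet2 sit at 1.36 to 6.11 CPM in the extravasated libraries, below every control value of 7.20 to 49.3 CPM, whereas the groups of Tet3 and Dnmt1 overlap.

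The makeup of TET reads differed between the groups, with fewer Tet1 and Tet2 reads after extravasation. Tet3 supplied 63.3% (95% Wilson interval 61.1 to 65.5) and 71.7% (70.0 to 73.4) of TET reads in the non-extravasated libraries, against 93.9% (92.6 to 95.04) and 90.7% (89.2 to 92.1) in the extravasated ones. Tet2 supplied 32.0% (29.9 to 34.2) and 19.1% (17.7 to 20.6), against 4.85% (3.86 to 6.07) and 7.51% (6.30 to 8.93). These intervals cover counting error only, and the shares are not scaled by transcript length. The summed TET level was 158.8 ± 6.69 CPM in the non-extravasated and 96.1 ± 20.9 CPM in the extravasated libraries (SD, n = 2 each), so the TET reads that were left were mostly from Tet3. Because Tet2 enters these shares and sums, they are given as a description.

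Per kilobase of transcript, which allows levels of different genes to be compared, Tet3 stood at 18.1, Tet2 at 4.39 and Tet1 at 0.772 CPM per kb in the non-extravasated group. In the extravasated group the levels were 14.97, 0.626 and 0.0969 CPM per kb. These Tet3 levels use its shorter transcript. On its longest annotated transcript Tet3 stood at 9.85 CPM per kb in the non-extravasated and 8.16 in the extravasated group. The order of the TET genes was the same in every library. The ratio of Tet2 to Tet3 per length was 0.327 and 0.173 in the non-extravasated libraries, against 0.0334 and 0.0536 in the extravasated ones. This ratio too rests on the shorter Tet3 transcript.

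**Figure D2:**
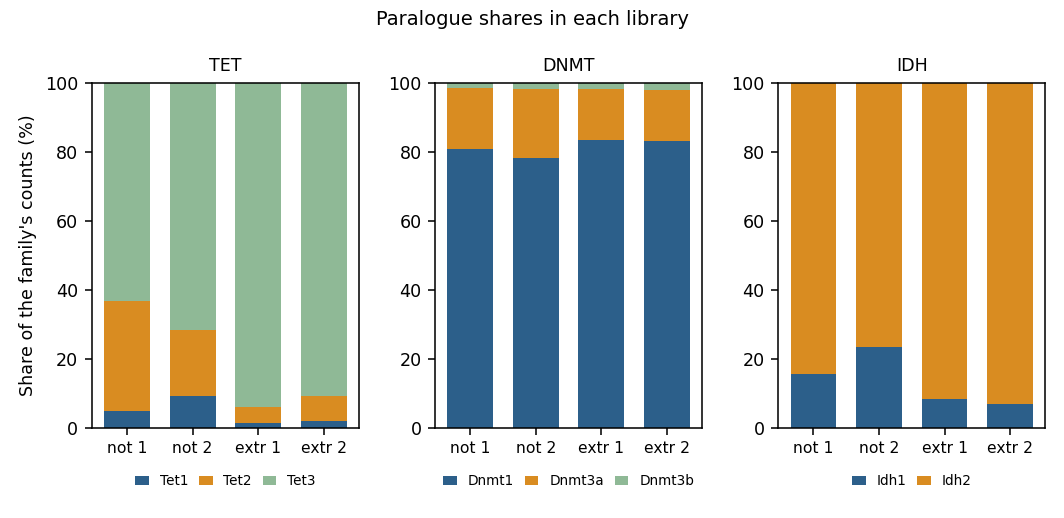
Share of each family's reads (%) taken by each paralogue in the 2 non-extravasated (not) and 2 extravasated (extr) libraries, for the TET, DNMT and IDH genes. Tet3 takes 90.7% and 93.9% of TET reads in the extravasated libraries against 63.3% and 71.7% in the others, while Dnmt1 stays between 78.2% and 83.6% of DNMT reads.

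No methyltransferase gene passed edgeR's test of the group alone, with all libraries. Dnmt1 (ENSMUSG00000004099.16, chr9:20907209-20959888, minus strand), the maintenance enzyme, was the most abundant of the 3, at 478.2 and 491.6 CPM without and 543.9 and 480.3 CPM with extravasation. The groups overlapped and extravasated 2 lay between the controls. The log2 fold change was 0.08 ± 0.12 with an edgeR adjusted p of 0.615, and it was -0.01 with the correction (adjusted p 0.947).

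Dnmt3a (ENSMUSG00000020661.15, chr12:3806007-3914443, plus strand), the main de novo enzyme of adult cells, had 104.2 and 126.5 CPM in the non-extravasated and 95.6 and 84.9 CPM in the extravasated libraries. Both extravasated values were below both controls, but the gap between 95.6 and 104.2 CPM was smaller than the distance between the controls. The log2 fold change was -0.36 ± 0.15 and missed the threshold in edgeR (adjusted p 0.0812). It was -0.04 with the correction (adjusted p 0.886). Without non-extravasated 1 the uncorrected value was -0.49 and passed (edgeR adjusted p 0.00685). The corrected direction turned without non-extravasated 2, to 0.22.

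Dnmt3b (ENSMUSG00000027478.15, chr2:153649450-153687730, plus strand), the de novo enzyme that is high in embryonic cells, was low here, at 8.25 and 10.9 CPM in the non-extravasated and 11.3 and 11.7 CPM in the extravasated libraries. The extravasated libraries lay just above the higher control. Its log2 fold change was 0.25 ± 0.23 (edgeR adjusted p 0.393), and 0.12 with the correction (adjusted p 0.743), which turned to -0.067 without non-extravasated 1. The near relatives Dnmt3c and Dnmt3l had 0 to 2 reads per library. Summed over the 3 methyltransferases, the level was 609.8 ± 27.1 CPM without and 613.9 ± 52.2 CPM with extravasation (SD, n = 2 each), a difference smaller than either SD. Per length, Dnmt1 stood at 90.3 CPM per kb in the non-extravasated group, Dnmt3a at 11.9 and Dnmt3b at 2.22.

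Tdg (ENSMUSG00000034674.18, chr10:82629828-82650799, plus strand) encodes thymine DNA glycosylase, which removes the oxidised bases that TET enzymes make. Its level was 57.9 and 69.0 CPM in the non-extravasated and 76.7 and 72.9 CPM in the extravasated libraries, with both extravasated values above both controls. A log2 fold change of 0.24 ± 0.14 did not pass the test (edgeR adjusted p 0.209). The corrected value was 0.60 ± 0.14 and did (edgeR adjusted p 0.0288; 0.55 and 0.0371 with the longest transcript). That call ended without extravasated 1 (0.65, edgeR adjusted p 0.144) or extravasated 2 (0.56, adjusted p 0.239). The annotated Tdg transcript is 47.9% GC. The pseudogene Tdg-ps had at most 1 read in a library.

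Of the isocitrate dehydrogenases, Idh1 was lower and Idh2 higher in the extravasated libraries without correction. Idh1 (ENSMUSG00000025950.16, chr1:65158616-65186500, minus strand) had 59.2 and 125.5 CPM in the non-extravasated and 43.8 and 37.7 CPM in the extravasated libraries. The controls differed from each other by more than the lower of them differed from the extravasated libraries. Its log2 fold change was -1.18 ± 0.36 (edgeR adjusted p 0.0452), a 2.27-fold fall. Without non-extravasated 2, the high control, it was -0.53 (edgeR adjusted p 0.00990), and without non-extravasated 1 it was -1.62. The call ended without extravasated 1 (-1.21, edgeR adjusted p 0.195), without extravasated 2 (-1.05, adjusted p 0.276), with RLE factors (adjusted p 0.0770), with upper quartile factors (adjusted p 0.0927) and with the correction (-0.39 ± 0.40, adjusted p 0.548). With the correction and without non-extravasated 2 the direction turned, to 0.38 (edgeR adjusted p 0.0891).

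Idh2 (ENSMUSG00000030541.16, chr7:80094846-80115392, minus strand) had 324.4 and 411.3 CPM in the non-extravasated and 477.6 and 506.4 CPM in the extravasated libraries. Both extravasated values were above both controls. The log2 fold change was 0.42 ± 0.14 (edgeR adjusted p 0.0435) and -0.03 ± 0.14 with the correction (adjusted p 0.898). The call also ended with library totals in place of TMM (0.36, edgeR adjusted p 0.111), and without extravasated 1 (0.55, adjusted p 0.103), extravasated 2 (0.41, adjusted p 0.226) or non-extravasated 1 (0.26, adjusted p 0.126). Per length, the ratio of Idh2 to Idh1 was 7.23 and 4.33 in the non-extravasated and 14.4 and 17.7 in the extravasated libraries, so that the mitochondrial form led in every library.

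Ranked by level per length, the non-extravasated order was Idh2 (210.8 CPM per kb), Dnmt1 (90.3), Idh1 (40.1), Tdg and Tet3 (18.1 each), Dnmt3a (11.9), Tet2 (4.39), Dnmt3b (2.22) and Tet1 (0.772). The ranges of Tdg and Tet3 overlapped and no other neighbours did. In the extravasated group the order was Idh2 (281.9), Dnmt1 (95.4), Tdg (21.4), Idh1 (17.7), Tet3 (14.97), Dnmt3a (9.32), Dnmt3b (2.66), Tet2 (0.626) and Tet1 (0.0969), with overlapping ranges for Idh1 and Tet3 only. Tet2 thus stood above Dnmt3b in both non-extravasated libraries and below it in both extravasated libraries. Tet3 has a longer annotated transcript, on which its level was 9.85 CPM per kb in the non-extravasated group, below Dnmt3a.

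Counted without Tet2, 3 of the other 8 genes passed the edgeR threshold, against 45.1% of all tested genes. Tet1 and Idh1 were called lower, beside a background of 25.9% called lower, and Idh2 higher, beside 19.1% called higher. The CPM ranges of the groups did not overlap for 6 of these 8, against 76.3% of all tested genes. With the correction 1 of the 8 was called, Tdg, against 14.1%. Since the set was put together with this contrast known, nothing is read from these counts.

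**Figure D3:**
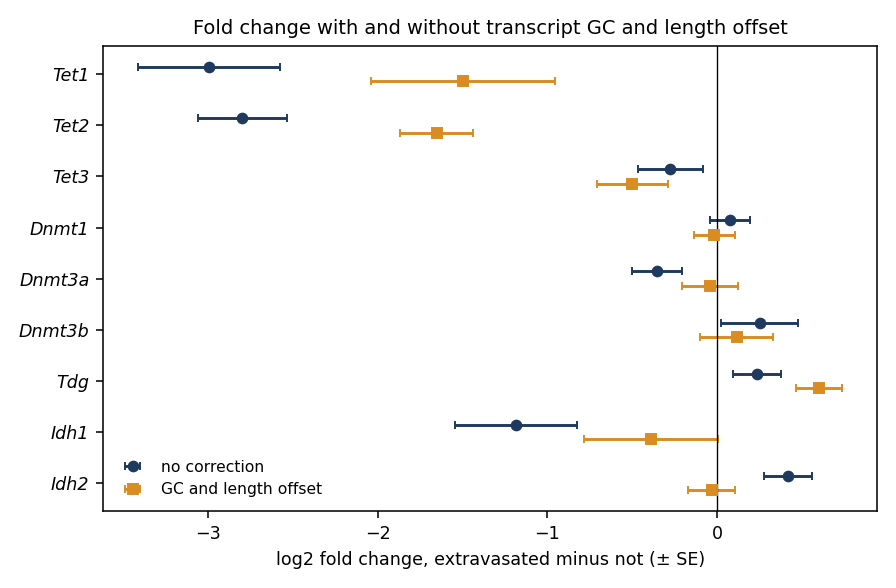
Log2 fold change (extravasated minus not, ± SE) of the 9 genes without correction (circles) and with the offset for transcript GC content and length (squares). Tet1 moves from -3.00 to -1.50 and Tet2 from -2.80 to -1.65, Idh1 and Idh2 move towards 0, and Tdg moves from 0.24 to 0.60.

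Tet1, Idh1 and Tet2 had the lowest transcript GC content of the 9, with 43.7% for Tet1, 43.8% for Idh1 and 45.4% for Tet2. The other 6 ranged from 47.9% in Tdg to 60.1% in Tet3. The Tet3 value is that of its shorter transcript, the longest being 53.4% GC. Tet1 and Tet2 also have long, AT-rich stretches after the coding part, of 7958 nt at 39.5% GC and 3061 nt at 38.4% GC. Their coding parts of 6117 and 5736 nt were 48.9% and 48.2% GC. Antisense and overlapping genes annotated at these loci had at most 5 reads in any library.

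**Figure D4:**
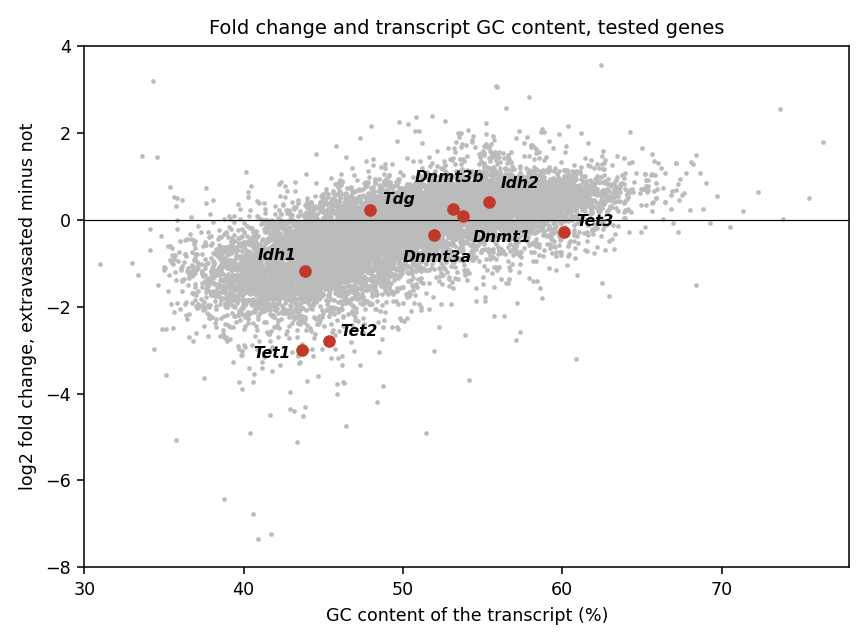
Log2 fold change (extravasated minus not) against the GC content of the transcript (%) for tested genes with a known GC content (grey) and the 9 enzyme genes (red). Fold changes rise with GC content (Spearman rho 0.74 over the 11126 nuclear coding genes among them). Tet1 and Tet2 lie at the lower edge of the cloud and Idh1 within it.

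The other genes of the pathway were described by 9 lists, beside a median log2 fold change of -0.02 over all tested genes (0.04 corrected). Of all tested genes 25.9% were called lower and 19.1% higher, and 14.1% were called in either direction with the correction. Among the partners of the methyltransferases, 3 of 13 tested genes rose and 5 fell (median -0.01), and 1 rose and 1 fell with the correction (median 0.03). Uhrf1, which brings Dnmt1 to newly replicated DNA, stood at 435.8 and 482.0 CPM without and 619.5 and 652.6 CPM with extravasation (log2 fold change 0.47, edgeR adjusted p 0.0141). Trim28, a corepressor that recruits methylation to retroelements, rose by 0.68 (edgeR adjusted p 0.00492) and Ehmt2, a histone methyltransferase, by 0.60 (adjusted p 0.00748). Usp7, a deubiquitinase that acts on Dnmt1 and Uhrf1, fell by 0.78 (edgeR adjusted p 0.00881). With the correction these 4 did not pass, at 0.25, 0.25, 0.22 and -0.17. Nsd1, which writes a histone mark read by Dnmt3a, fell by 2.16 (edgeR adjusted p 0.00130) and did pass (-1.05, adjusted p 0.0419).

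A list of 9 genes joined readers of methylated CpG with other members of the methyl-CpG-binding domain (MBD) family. Not all of that family are known for a preference for methylated DNA, Mbd3 and Mbd5 being examples. Of the 9, 1 rose and 4 fell (median -0.53), with none higher and 2 lower in edgeR under the correction (median -0.25). Mbd3, a subunit of the NuRD complex, had 113.1 and 114.2 CPM without and 200.02 and 198.9 CPM with extravasation (log2 fold change 0.81, edgeR adjusted p 0.00219). Zbtb38, a zinc finger reader, fell by 1.49 (edgeR adjusted p 0.00261) and Mbd5 fell by 1.26 (adjusted p 0.00603). With the correction Mbd3, Zbtb38 and Mbd5 did not pass, at 0.22, -0.49 and -0.25.

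Of 10 TET partners, 5 were expressed enough to be tested; 1 rose and 3 fell (median -0.82), and 2 fell with the correction (median -0.38). Ogt, the transferase that binds TET enzymes and adds O-GlcNAc to proteins, stood at 164.9 and 132.5 CPM without and 37.9 and 29.5 CPM with extravasation. Both extravasated libraries were far below both controls; the log2 fold change was -2.15 (edgeR adjusted p 0.000719), and -0.99 with the correction (adjusted p 0.00693). Oga, the enzyme that removes O-GlcNAc, fell with it, by 1.23 (edgeR adjusted p 0.00271) and had -0.60 with the correction (adjusted p 0.0484). Sin3a, a corepressor found with Tet1, fell by 0.82 (edgeR adjusted p 0.00585) and Hcfc1, a partner of Ogt, rose by 0.33 (adjusted p 0.0456). Neither passed with the correction, at -0.38 and 0.38.

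A list for base excision repair also held glycosylases that act beside Tdg, such as Mbd4, Smug1 and Ung, and the Gadd45 genes. Of its 14 tested genes 4 rose and 2 fell (median -0.04), and none was called in edgeR with the correction (median -0.08). Mbd4, a glycosylase that like Tdg removes mismatched thymine, had 26.2 and 29.7 CPM without and 11.7 and 9.32 CPM with extravasation (log2 fold change -1.41, edgeR adjusted p 0.00204; corrected -0.51, adjusted p 0.109). Neil3, another glycosylase, fell by 1.12 (edgeR adjusted p 0.00606). The repair scaffold Xrcc1 rose by 0.74 (edgeR adjusted p 0.00355), the endonuclease Apex1 by 0.55 (adjusted p 0.0171) and the strand break sensor Parp1 by 0.44 (adjusted p 0.0175). With the correction Neil3 was at -0.55, Xrcc1 at 0.27, Apex1 at 0.30 and Parp1 at 0.31.

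**Figure D5:**
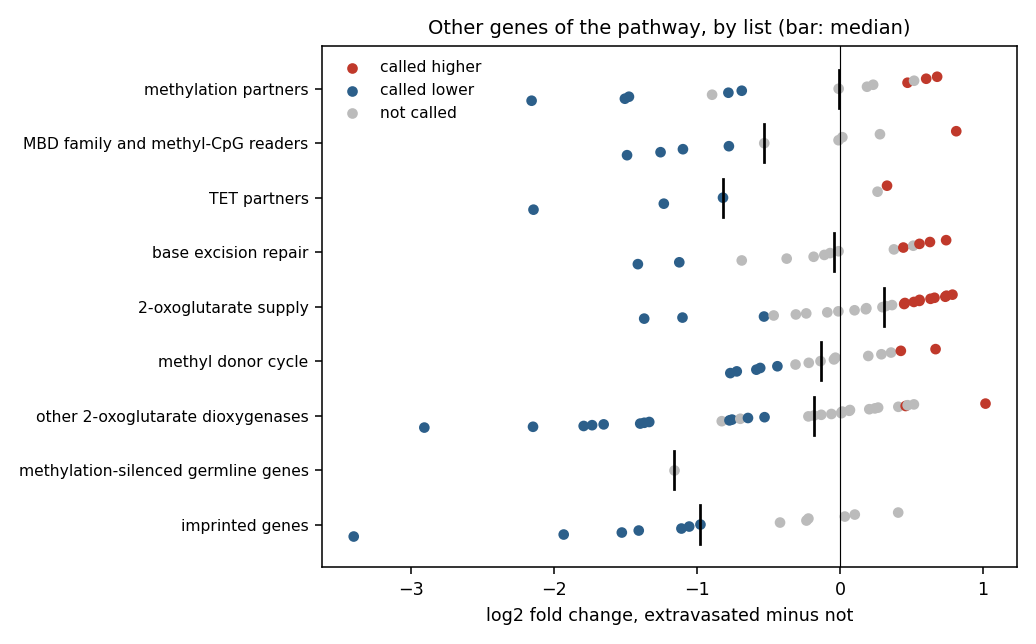
Log2 fold change (extravasated minus not) of each tested gene of the 9 pathway lists, coloured by the edgeR call at an adjusted p under 0.05, with a bar at the list's median. The genes of 2-oxoglutarate supply and removal lie mostly to the right of 0 (median 0.31), while the imprinted genes (median -0.98) and the TET partners (median -0.82) lie mostly to the left.

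The 24 genes of 2-oxoglutarate supply and removal, mostly enzymes of the citric acid cycle, were higher for 10, lower for 3 and not called for 11, with a median of 0.31. With the correction 7 rose and none fell in edgeR (median 0.36), against 1015 higher and 718 lower among all 12320 tested genes. The list joins genes that make 2-oxoglutarate with genes that consume it, so its median gives no direction of supply. Ogdh, the subunit of the complex that consumes 2-oxoglutarate, had 496.3 and 479.2 CPM without and 760.8 and 862.9 CPM with extravasation (log2 fold change 0.74, edgeR adjusted p 0.00300; corrected 0.64, adjusted p 0.0169). Sdhd and Sdhb, subunits of succinate dehydrogenase, which clears the TET inhibitor succinate, rose by 0.79 (edgeR adjusted p 0.00257) and 0.74 (adjusted p 0.00282). Sdhd was called with the correction too (0.75, edgeR adjusted p 0.00893) and Sdhb was not (0.21). Sucla2, a subunit of succinyl-CoA synthetase, fell by 1.10 (edgeR adjusted p 0.00138; corrected -0.21, adjusted p 0.292).

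In the methyl donor cycle, which makes the S-adenosylmethionine that DNMT enzymes use, 2 of 15 tested genes rose and 5 fell (median -0.14), and 2 rose and none fell in edgeR with the correction (median 0.18). Ahcy, which hydrolyses the inhibitory product S-adenosylhomocysteine, had 96.6 and 95.2 CPM without and 140.7 and 163.9 CPM with extravasation (log2 fold change 0.67, edgeR adjusted p 0.00642; corrected 0.51, adjusted p 0.0358). Mat2a, which makes S-adenosylmethionine, fell by 0.59 (edgeR adjusted p 0.00703), methionine synthase Mtr fell by 0.77 (adjusted p 0.0139) and the decarboxylase Amd1 fell by 0.72 (adjusted p 0.0145). With the correction these 3 had values above 0 that did not pass, of 0.15, 0.18 and 0.41.

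TET enzymes belong to a larger family of dioxygenases that use 2-oxoglutarate. Of 31 others tested, 2 rose and 12 fell (median -0.18), and 2 rose and 4 fell with the correction (median -0.17). Alkbh8, a tRNA-modifying enzyme, stood at 38.8 and 25.6 CPM without and 7.27 and 7.21 CPM with extravasation (log2 fold change -2.15, edgeR adjusted p 0.00105; corrected -0.63, adjusted p 0.0413). The histone demethylase genes Kdm6a, Kdm5a and Kdm3a fell, with log2 fold changes of -1.73, -1.65 and -1.34 (edgeR adjusted p 0.00156, 0.000737 and 0.000765), and of these Kdm3a was called with the correction (-0.54, adjusted p 0.0276), while Kdm6a was at -0.49 and Kdm5a at -0.17. Alkbh5, the RNA demethylase with the most reads of the list, had a log2 fold change of 0.01 (edgeR adjusted p 0.940; corrected 0.28).

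Germline genes silenced by DNA methylation and genes listed as imprinted were followed in 2 lists. Counts per gene do not separate alleles or transcript forms, and not every form of a listed gene need be imprinted in these cells. Control by methylation was not tested. Of 19 germline genes that methylation silences in somatic cells, 5 had a read and 1, the bromodomain gene Brdt, could be tested; it did not pass (log2 fold change -1.16, edgeR adjusted p 0.0665, corrected -0.30, at 0.606 to 1.74 CPM). Of 25 imprinted genes 13 were tested, of which 7 fell and none rose in edgeR (median -0.98). Impact, a regulator of translation under amino acid shortage, had 43.8 and 29.0 CPM without and 9.92 and 9.11 CPM with extravasation (log2 fold change -1.93, edgeR adjusted p 0.00132). It was the 1 gene of the list that was also called lower with the correction (-0.81, adjusted p 0.0251). Plagl1, a zinc finger gene, had 942.8 and 548.1 CPM without and 242.9 and 318.3 CPM with extravasation (log2 fold change -1.41, edgeR adjusted p 0.0142). Inpp5f, a phosphatase, fell by 1.06 (edgeR adjusted p 0.00200) and the retrotransposon-derived Peg10 fell by 0.98 (adjusted p 0.00871). With the correction Plagl1, Inpp5f and Peg10 were not called (-0.67, -0.34 and -0.27), 2 other genes of the list rose, and the median was -0.34. Gnas, the gene of the imprinted list with the most reads, had a log2 fold change of 0.10 (edgeR adjusted p 0.509). It turned to -0.28 with the correction (adjusted p 0.136).

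The 5 genes whose profile over the 4 libraries was most like that of Tet2, by the distance between centred log2(CPM + 0.5) values, were Gdap10 (0.106), Taf1 (0.156), Zfp871 (0.176), Uggt2 (0.265) and Nfat5 (0.306). Gdap10 had few reads, at 4.34 and 2.72 CPM without and 0.0757 and 0.105 CPM with extravasation. Its log2 fold change was -5.11 against -2.80 for Tet2, so its small distance depends on the added 0.5. Taf1, a subunit of the general transcription factor TFIID, had 141.0 and 92.4 CPM without and 18.6 and 20.3 CPM with extravasation. As with Tet2, non-extravasated 1 was the highest and both extravasated libraries were low and near each other. Nfat5, the osmotic stress factor, had 95.5 and 53.2 CPM against 9.16 and 8.95 CPM. With 4 libraries, likeness rests mainly on the group difference that singled out Tet2. Their transcripts were 40.0% to 48.5% GC.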

How the data were processed

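RNA of cultured B16-F10 cells was measured in 4 libraries, 2 per group. The authors deposited 1 table of read counts, whole numbers without normalization whose totals ran from 11705904 to 19674733 per library. Per the submitters' processing notes, bcl2fastq 2.18.0.12, STAR 2.5.3a and GRCm38 were used. Counter, annotation and strand setting are not given in the sources used here, so reads of overlapping or near-identical genes may have been split or dropped.

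Counts were tested with edgeR 4.0.16 (R 4.3.3): its default filter with a minimum count of 10 and a minimum total of 15, scaling by TMM, robust moderation, and a two-sided quasi-likelihood test of the group term alone over 12320 genes, with Benjamini-Hochberg adjustment and a threshold of 0.05. Levels are TMM-scaled CPM, with the mean and SD over 2 libraries, and SE is the fold change over the square root of F. Fold changes are given for extravasated against not extravasated.

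In the corrected fit, each gene's deviation of log2 CPM (prior count 2) from its mean over the libraries was smoothed on transcript GC content and log2 length by mgcv 1.9.3 with a basis size of 10, and the smooth was given to edgeR as offset. Properties of the APPRIS principal transcript in GENCODE M21 were known for 99.9% of tested genes. Mitochondrially encoded genes and genes without these properties received no correction.

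The genes and lists were chosen with earlier results of these data known. The rule for naming was all 9 enzyme genes, up to 4 called genes per list with the smallest adjusted p, the gene of each list with the highest mean CPM, and the 5 genes most like Tet2 without predicted genes. Of these, 2 are not reported here. The 21 alternatives covered RLE, upper quartile and absent scaling, DESeq2 1.42.0, limma-voom (limma 3.58.1), other filters, a stricter threshold, the title suffix as a replicate block, the longest transcript, and leaving out each library. The edgeR code was tested on simulated data. Promoter windows are from RefSeq, which matched all 9 genes.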

Additional observations from a re-analysis of the deposited data

How the results depend on the processing

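Depth limits Tet1 most, with 18 and 27 reads in the extravasated libraries, and 2 libraries a group leave few degrees of freedom. The Tet1 and Tet2 log2 fold changes were below 0 under all 21 alternatives, from -3.42 to -0.52 for Tet1 and from -3.09 to -1.43 for Tet2. Tet2 was chosen by its counts in these same libraries, so neither its range nor its SE is a test. The causes of the changes listed here were not tested.

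Of all genes, 2355 were called higher and 3196 lower, against 903 and 1889 at an adjusted p under 0.01, 1015 and 718 with the GC and length offset, and 992 and 670 with that offset from the longest transcript. Leaving out 1 library, which takes a lone library to vary like the other group, gave 545 to 2758 higher and 1329 to 3541 lower, with the fewest of both without extravasated 2. With the offset as well it gave 0 to 1920 higher and 0 to 1398 lower: 72 and 61 without extravasated 1, and 1375 and 946 without non-extravasated 2. Without extravasated 2 that fit made no call in edgeR, with 2105 of 12715 genes at an unadjusted p under 0.05. Genes of the pathway lists called higher numbered 23, against 13, 14 and 12 under the stricter threshold and the 2 offsets, 7 to 28 with 1 library left out and 0 to 23 with the offset as well. Those called lower numbered 41, against 25, 10 and 10, 15 to 46 and 0 to 23.

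Of the 9 enzyme genes, 1 was called higher, against 0 with library totals, 0 at the stricter threshold and 0 to 1 with 1 library left out, with or without the offset. Tet2 left aside, 2 were called lower, Tet1 and Idh1, and none of the other 8 was called lower with either offset. Without non-extravasated 1, Tet3 was at -0.40 and Dnmt3a at -0.49. Without an extravasated library the offset fit called none of the 8 other than Tet2.

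The replicate numbers follow accession order and pair nothing. Libraries that share a kind of title suffix had deviations that correlated at 0.0949, over 2 pairs. With that suffix as a replicate block, 2632 genes were called higher and 3533 lower. Dnmt3a was added to the enzyme genes called lower (-0.35, edgeR adjusted p 0.0473). With the block and the offset, 1311 genes and 22 list genes were called lower, and Tet3 passed (-0.52, edgeR adjusted p 0.00389).

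Directions turned for 5 of the 9 enzyme genes, each in fits with the offset. Dnmt1 was at -0.015, with the longest transcript at -0.0020, with the block at -0.017, and between -0.11 and 0.09 with 1 library left out, -0.059 being the value without non-extravasated 1. Idh2 was at -0.032, -0.052 and -0.021 in the same fits, and between -0.17 and 0.16 with 1 library left out, with -0.012 without extravasated 1 and -0.020 without extravasated 2. With the offset and 1 library left out, Dnmt3a reached 0.012 without extravasated 2 and 0.22 without non-extravasated 2, Dnmt3b was -0.067 without non-extravasated 1, and Idh1 was 0.38 without non-extravasated 2 (edgeR adjusted p 0.0891). Per kilobase of the longest transcript, Tet3 stood at 9.85 and Dnmt1 at 82.6 CPM in the non-extravasated group.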
